A study of Arabidopsis thaliana with 12 samples.

Results

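The 10 genes described here make the gaseous hormone ethylene or take part in sensing it. They were taken by gene identifier, with earlier results of these data known, and all 10 were found in at least 1 of the 6 deposited tables, which together list 11417 genes. They comprise the ACC synthases ACS4, ACS5, ACS6 and ACS8, the ACC oxidase ACO1, the ethylene receptors ETR2, ERS1 and ERS2, and the F-box proteins EBF1 and EBF2. Other genes of the pathway, 44 in number, were set beside them, of which 30 were in some table.

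RNA was sequenced from Arabidopsis thaliana seedlings of the Columbia ecotype, which spent 4 days in darkness on half-strength medium with 1% sucrose. The groups, with 3 libraries each that the labels call biological replicates, were illuminated 35S:miR396a (3 h of light), dark 35S:miR396a, illuminated Col-0 (3 h of light) and dark Col-0. Col-0 is the wild type, and 35S:miR396a carries the microRNA miR396a behind the 35S promoter, which is active in most plant tissues. The number of transgenic lines is not stated by the labels. Going by its title, the study dealt with how brassinosteroids and the miR396 module bear on photooxidative damage when dark-grown seedlings meet light.

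Ethylene is made from S-adenosylmethionine in 2 steps: ACC synthase forms the precursor ACC, usually the limiting step, and ACC oxidase turns ACC into ethylene. The receptors are active without ethylene and then keep the pathway off through the kinase CTR1. When ethylene binds, EIN2 relays the signal and the transcription factors EIN3 and EIL1 accumulate, whereas EBF1 and EBF2 mark them for degradation. Transcripts of ETR2, ERS1, ERS2 and EBF2 are known to rise in response to ethylene. In dark-grown seedlings ethylene keeps the apical hook closed, and EIN3 and EIL1 are known to limit photooxidative damage at the first exposure to light.

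Each level below is the authors' mean FPKM of a group, a fragment count scaled to transcript length and sequencing depth. No SD or n can therefore stand beside a mean, and no difference could be compared with the spread between replicates. "Listed" below means that the authors' deposited table holds the gene, which requires over 2-fold and a q-value under 0.001. Those q-values came from reads pooled over a group and carry counting error only. A q-value here can be smaller than its p-value, so the limit is looser than the same limit on p. Among genes listed for light, the authors' largest DEGseq p-value was 0.0042 in 35S:miR396a and 0.0028 in Col-0. A share of all genes below is a share of the 11417 genes that were listed in some table, and genes listed in none are not part of it. Pooled depth was solved from folds, p-values, mean FPKM and the longest annotated transcript of each gene, so it also rests on those lengths. It was about 126000000 fragments for illuminated 35S:miR396a, 118000000 for dark 35S:miR396a, 118000000 for illuminated Col-0 and 113000000 for dark Col-0. The depth of single libraries is unknown. Of 8 known miR396 targets, 6 were listed with the lower mean in the overexpressor in the light and 6 in the dark, beside 25.9% and 10.6% of all genes. None of the 8 was listed with the higher mean, beside 35.5% of all genes in the light and 8.74% in the dark. In bulk seedling RNA, fewer cells of a type and less RNA per cell cannot be told apart.

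The labels call the tissue hypocotyl, and the growth text speaks of seedlings; no gene was taken to define the hypocotyl, and markers of other parts were uneven. Of the mesophyll markers, the Rubisco subunit gene RBCS1A stood at 1739 FPKM in illuminated 35S:miR396a, 4094 in dark 35S:miR396a, 8745 in illuminated Col-0 and 5353 in dark Col-0. The antenna protein gene LHCB1.1 had 532 FPKM in illuminated 35S:miR396a, 88.0 in dark 35S:miR396a, 3303 in illuminated Col-0 and 45.9 in dark Col-0, so that in 35S:miR396a it was listed higher after light and RBCS1A lower. Of the root markers, PYK10, a beta-glucosidase, had 6636 FPKM in illuminated 35S:miR396a and 3007 in dark 35S:miR396a. The root hair genes were low, COBL9 with 1.54 FPKM in illuminated 35S:miR396a and 0.73 in dark Col-0, and RHD6 with 0.663 in illuminated Col-0 and 1.33 in dark Col-0. Of the shoot apex markers, STM had 9.996 FPKM in dark 35S:miR396a and 4.78 in illuminated Col-0, while CUC1 and CUC2 stayed under 1 FPKM wherever a table gave a value.

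The transgene's product is shown first because it pairs with its targets by sequence. Mature miR396a-5p lies on chromosome 2 (chr2:4142443-4142463, minus strand, TAIR10.1) and is printed as DNA, 5′ to 3′, with its seed (bases 2 to 8) in capitals. Below it stand the closest stretch to its perfect complement in the transcript of the target GRF4 and that in EBF2, the closest among the ethylene genes.
miR396a-5p: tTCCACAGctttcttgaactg
GRF4: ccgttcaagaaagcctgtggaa
EBF2: cagttcaagatgtgga
Among 27444 protein-coding genes searched, exactly 7 had a stretch within 2 edits (mismatches, insertions or deletions) of the perfect complement, and these were the 7 GRF targets GRF1, GRF2, GRF3, GRF4, GRF7, GRF8 and GRF9. The stretch in EBF2 differed by 5 edits, a distance that 10.5% of genes reached or bettered. The other 9 ethylene genes were 6 or 7 edits away, which 51.0% and 91.7% of genes reached or bettered. The known target bHLH74 also came out at 5 edits, so a count of edits does not find every site.

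**Figure D1:**
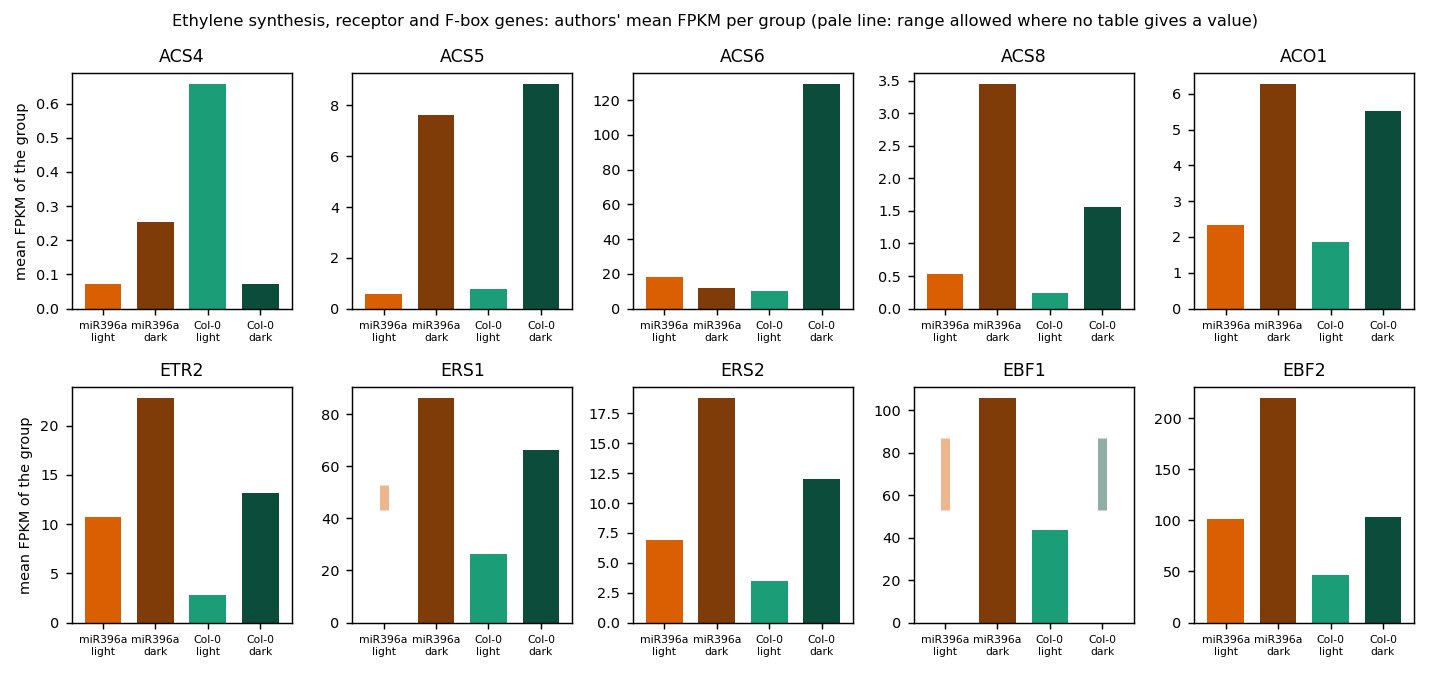
Authors' mean FPKM (vertical axes, linear from 0) of the 10 ethylene genes in illuminated 35S:miR396a, dark 35S:miR396a, illuminated Col-0 and dark Col-0. Pale lines give the range allowed for ERS1 and EBF1 where no table holds a value. Dark 35S:miR396a is the highest bar for ACS8, ACO1, ETR2, ERS1, ERS2 and EBF2, while ACS6 is highest in dark Col-0 at 129 FPKM and ACS4 in illuminated Col-0 at 0.656 FPKM.

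Most of the ethylene genes were lower after light in both genotypes. In 35S:miR396a 7 of the 10 were listed lower after light and none higher, beside 23.1% of all 11417 genes listed lower and 20.6% higher. In Col-0 8 of 10 were listed lower and 1, ACS4, higher, beside 26.1% and 17.0% of all genes. ACS5, ACS8, ACO1, ETR2, ERS2 and EBF2 were listed lower in both genotypes, 6 of 10 genes against 7.51% of all genes. The median light effect, as a difference of log2(FPKM + 1), was −1.11 over 8 ethylene genes in 35S:miR396a and −1.29 over 9 in Col-0, where all genes with both values had medians of −0.05 and −0.11. Past 4-fold, 2 of 10 were lower after light in 35S:miR396a, beside 6.29% of all genes, and 4 of 10 in Col-0, beside 8.91%. Because the 10 genes were chosen with earlier results of these data known, their shares and medians, here and below, are description only. They are no test of the set against all genes.

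**Figure D2:**
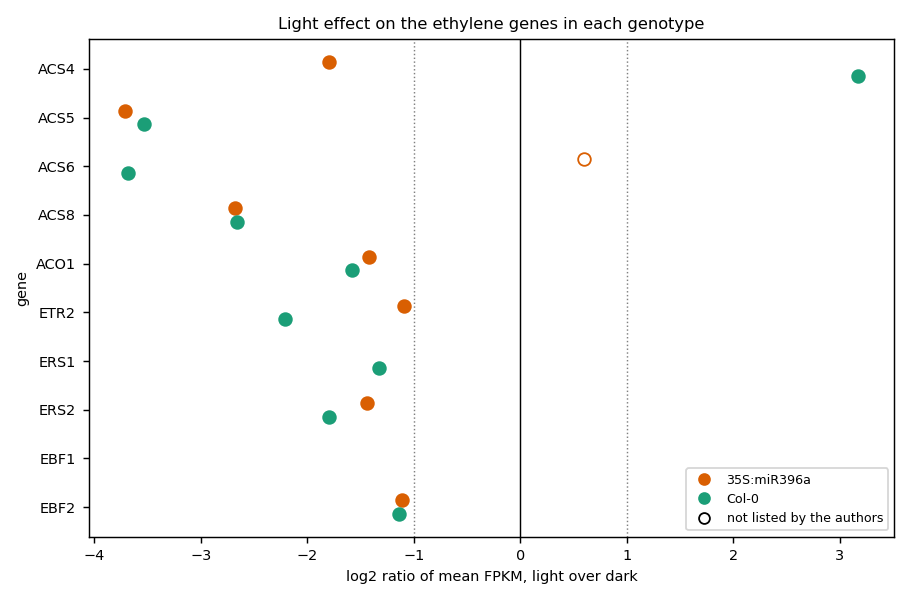
Log2 ratio of mean FPKM, light over dark (horizontal axis), for each ethylene gene in 35S:miR396a (orange) and in Col-0 (green). Filled points were listed by the authors, open points were not, and dotted lines mark a 2-fold change. ACS4 lies on opposite sides of 0 in the genotypes, at −1.79 in 35S:miR396a and 3.17 in Col-0, and ACS6 lies at −3.68 in Col-0 and at 0.59 in 35S:miR396a; ERS1 in 35S:miR396a and EBF1 have no point.

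Of the 4 ACC synthases in the set, ACS5 (AT5G65800, chr5:26330746-26332812; gene positions here are in TAIR10.1) fell steeply in both genotypes. ACS5, ACS4, ACS8 and ACS9 belong to the isoforms whose proteins are held in check by the ETO1 family, which targets them for degradation. The level of ACS5 was 0.583 FPKM in illuminated 35S:miR396a against 7.62 in dark 35S:miR396a, and 0.763 in illuminated Col-0 against 8.83 in dark Col-0. That is a 13.1-fold lower mean after light in 35S:miR396a and an 11.6-fold lower mean in Col-0. Between genotypes its means differed by 1.31-fold in the light and 1.16-fold in the dark, and it was listed in neither.

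ACS8 (AT4G37770, chr4:17752079-17754157) followed the same course at a lower level, with higher means in the overexpressor. It had 0.536 FPKM in illuminated 35S:miR396a against 3.44 in dark 35S:miR396a, and 0.246 in illuminated Col-0 against 1.56 in dark Col-0. The drop with light was 6.42-fold in 35S:miR396a and 6.34-fold in Col-0. The overexpressor's mean was 2.18-fold that of Col-0 in the light and 2.21-fold in the dark, listed higher in both. The reads behind ACS8, pooled over 3 libraries, were 121 in illuminated 35S:miR396a, 723 in dark 35S:miR396a, 53 in illuminated Col-0 and 327 in dark Col-0. Exact 95% Poisson intervals were 100.4 to 145 reads for illuminated 35S:miR396a and 39.7 to 69.3 for illuminated Col-0, and they cover counting error only. Since the reads were solved from the authors' folds and p-values, the intervals are no separate check of the listing.

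ACS4 (AT2G22810, chr2:9717602-9719594) moved in opposite directions in the genotypes, at very low levels throughout. It had 0.073 FPKM in illuminated 35S:miR396a against 0.253 in dark 35S:miR396a, and 0.656 in illuminated Col-0 against 0.073 in dark Col-0. These means rest on 17, 52, 134 and 14 pooled reads in that order, and the 5 tables that hold ACS4 gave the same rounded numbers. The authors' deposited tables gave a log2 fold of light of −1.71 in 35S:miR396a and 3.20 in Col-0, with q-values of 1.29e-06 and 2.78e-25. Across all genes, 1.29% were listed lower in 35S:miR396a and higher in Col-0. Relative to Col-0, the overexpressor was 8.99-fold lower in the light and 3.47-fold higher in the dark. With 14 pooled reads over 3 libraries in dark Col-0 (exact 95% Poisson interval 7.65 to 23.5) the counting error is wide, and the spread between libraries is unknown.

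ACS6 (AT4G11280, chr4:6863979-6866116) set dark Col-0 apart from the other groups. ACS6 is an isoform that the kinases MPK3 and MPK6 stabilise under stress, and its transcript is known to be induced by touch. Its level was 18.0 FPKM in illuminated 35S:miR396a, 11.9 in dark 35S:miR396a, 10.03 in illuminated Col-0 and 129 in dark Col-0. The illuminated mean was 12.9-fold lower in Col-0, while in 35S:miR396a the illuminated mean was 1.51 times the dark one and was not listed. In the dark the overexpressor was 10.8-fold below Col-0, and in the light it was 1.79 times Col-0 and not listed.

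Rapid touch and stress genes were, like ACS6, listed higher in dark Col-0 than in dark 35S:miR396a and illuminated Col-0. Of 10 such genes (TCH2, TCH3, TCH4, WRKY33, WRKY40, ZAT10, ZAT12, ERF5, ERF6 and CML38, chosen with earlier results of these data known), 10 were listed lower in dark 35S:miR396a than in dark Col-0, beside 10.6% of all genes. In 35S:miR396a 8 of the 10 were listed higher after light, beside 20.6% of all genes, and in Col-0 all 10 of them lower, beside 26.1%. Between genotypes in the light, 8 of the 10 were listed higher in 35S:miR396a, beside 35.5% of all genes. ACS6 was listed neither there nor after light in 35S:miR396a. Their summed level was 692 FPKM in illuminated 35S:miR396a, 213 in dark 35S:miR396a, 218 in illuminated Col-0 and 1119 in dark Col-0. Their part in the ACS6 values was not tested. With dark 35S:miR396a in place of dark Col-0, which changes genotype as well as light, 8 ethylene genes were lower and 1 higher in illuminated Col-0, with ACS6 no longer among the lower ones and EBF1 among them. Of all genes, 29.5% were listed higher in dark 35S:miR396a than in illuminated Col-0 and 17.9% lower. With dark Col-0 in place of dark 35S:miR396a, 4 rather than 7 were lower in illuminated 35S:miR396a, namely ACS5, ACS6, ACS8 and ACO1, beside 25.5% of all genes lower and 23.6% higher.

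**Figure D3:**
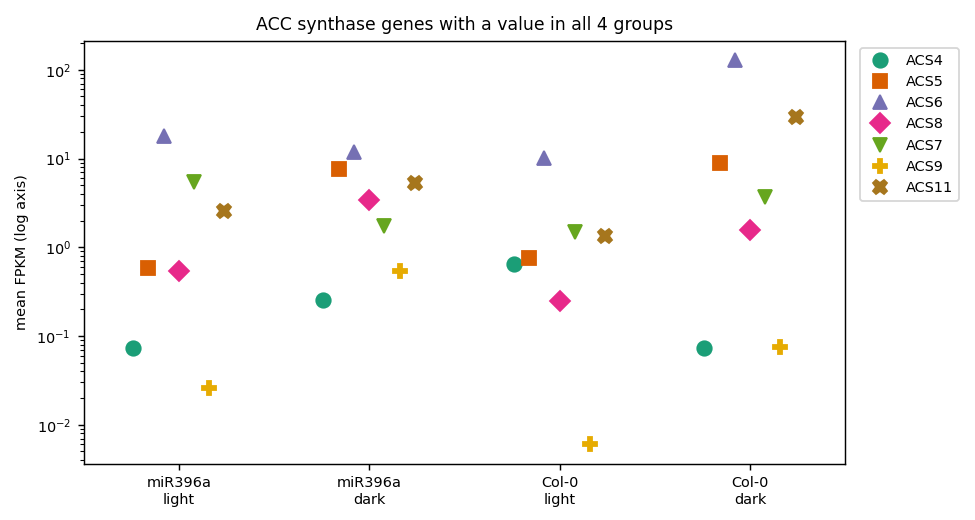
Mean FPKM (log axis) of the 7 ACC synthase genes with a value in all 4 groups; each symbol is 1 gene, shifted sideways within a group for visibility. ACS6 is the highest in every group, at 18.0 FPKM in illuminated 35S:miR396a, 11.9 in dark 35S:miR396a, 10.03 in illuminated Col-0 and 129 in dark Col-0.

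Across the 7 ACC synthase genes with a value in every group, the summed level was 27.2 FPKM in illuminated 35S:miR396a, 30.8 in dark 35S:miR396a, 14.5 in illuminated Col-0 and 173 in dark Col-0. ACS6 supplied 66.2%, 38.7%, 69.1% and 74.7% of these sums in the same order. Of the isoforms outside the set of 10, ACS11 resembled ACS6 in dark Col-0, at 2.55 FPKM in illuminated 35S:miR396a, 5.27 in dark 35S:miR396a, 1.34 in illuminated Col-0 and 29.5 in dark Col-0. ACS7 was listed higher after light in 35S:miR396a (5.41 FPKM against 1.74 in the dark) and lower after light in Col-0 (1.47 against 3.71). ACS2, which has no value in illuminated Col-0, was listed higher after light in 35S:miR396a, at 3.35 FPKM against 1.31 in the dark. ACS9 fell with light in both genotypes at under 1 FPKM. Its means rest on 5 pooled reads in illuminated 35S:miR396a against 90 in dark 35S:miR396a. In Col-0 they rest on 1 pooled read in the light against 13 in the dark. ACS10, which is an aminotransferase rather than an ACC synthase, was listed higher after light in Col-0 at 24.1 FPKM against 10.4.

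ACO1 (AT2G19590, chr2:8475276-8477733) fell with light in both genotypes. It had 2.34 FPKM in illuminated 35S:miR396a against 6.26 in dark 35S:miR396a, and 1.85 in illuminated Col-0 against 5.51 in dark Col-0. The drop was 2.68-fold in 35S:miR396a and 2.98-fold in Col-0, and ACO1 was listed in neither comparison of genotypes. Its level was below those of ACO4 and ACO5 in each group. ACO5 was listed lower after light in both genotypes, at 22.1 FPKM in illuminated 35S:miR396a against 69.4 in dark 35S:miR396a, and at 11.2 in illuminated Col-0 against 98.4 in dark Col-0. ACO4 did otherwise, with 41.5 FPKM in illuminated 35S:miR396a against 156 in dark 35S:miR396a, but 122 in illuminated Col-0 against 93.8 in dark Col-0, where it was not listed.

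The receptors with values fell with light as well, and of them ETR2 was listed higher in the illuminated overexpressor. ETR2 (AT3G23150, chr3:8254559-8257888) had 10.7 FPKM in illuminated 35S:miR396a against 22.8 in dark 35S:miR396a, and 2.85 in illuminated Col-0 against 13.2 in dark Col-0. The drop was 2.13-fold in 35S:miR396a and 4.63-fold in Col-0. Its mean in 35S:miR396a was 3.76 times that in Col-0 in the light, where it was listed higher, and 1.73 times in the dark, where it was not.

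ERS2 (AT1G04310, chr1:1154740-1157813) had 6.91 FPKM in illuminated 35S:miR396a against 18.8 in dark 35S:miR396a, and 3.46 in illuminated Col-0 against 12.0 in dark Col-0. It was listed lower after light in both genotypes, by 2.71-fold in 35S:miR396a and 3.47-fold in Col-0. It missed the list between genotypes in the light by the smallest margin, at 2.00-fold, and stood at 1.56-fold in the dark.

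ERS1 (AT2G40940, chr2:17084321-17087326) was the most abundant of the 3 receptors, with 86.1 FPKM in dark 35S:miR396a, 26.4 in illuminated Col-0 and 66.2 in dark Col-0. It was listed lower after light in Col-0, by 2.51-fold. No table holds its value in illuminated 35S:miR396a. Since it is in none of the 3 tables of that group, and a gene of this level is left out when its means lie within 2-fold, its value would lie between 43.1 and 52.8 FPKM. Of 8682 pairs of known means that the tables leave out, with at least 5 FPKM in the higher group, 0.599% lay beyond 2-fold. Dark 35S:miR396a (86.1 FPKM) and illuminated Col-0 (26.4 FPKM) were listed against each other, beyond 2-fold. The bracket therefore falls between their means by construction. ERS1 overlaps the gene AT2G40935 on the opposite strand, and the labels do not say whether strand was kept, so reads of this overlap cannot be told apart. The receptor genes ETR1 and EIN4 were in no table and have no value here.

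EBF2 (AT5G25350, chr5:8794252-8797349) was shifted by about 2-fold in every main comparison. It had 102 FPKM in illuminated 35S:miR396a against 219 in dark 35S:miR396a, and 46.7 in illuminated Col-0 against 103 in dark Col-0. The drop with light was 2.15-fold in 35S:miR396a and 2.204-fold in Col-0. The overexpressor's mean was 2.18 times that of Col-0 in the light and 2.13 times in the dark. Illuminated 35S:miR396a and dark Col-0 thus had nearly equal means. EBF2 overlaps the antisense gene AT5G03965 and the gene AT5G25340, both on the opposite strand, with the same limit on strand as for ERS1.

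EBF1 (AT2G25490, chr2:10847375-10850797), the close relative of EBF2, was in 1 table only, that of dark 35S:miR396a (106 FPKM) against illuminated Col-0 (43.5 FPKM). By the same 2-fold limits its level in illuminated 35S:miR396a and in dark Col-0 would lie between 52.8 and 87.0 FPKM in each. The order of the known means of EBF1, with dark 35S:miR396a above illuminated Col-0, follows from the listing that supplied them. In that pair 8 of the 10 genes were listed in this order. ACS6 had the same order without being listed, and ACS4 was listed in the reverse order.

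The 250 bases before the annotated start of 4 genes are printed because they hold the short core bound by EIN3, ATGTA on either strand, in receptor and F-box genes that fell with light and in ACS6. Capitals mark that core and the W-box core TTGAC, bound by WRKY factors, on either strand; the sequences are from the TAIR10.1 reference, on the strand of each gene. ETR2 and EBF2 hold the EIN3 core at 2 places each.
EBF2 (chr5:8797350-8797599, minus strand): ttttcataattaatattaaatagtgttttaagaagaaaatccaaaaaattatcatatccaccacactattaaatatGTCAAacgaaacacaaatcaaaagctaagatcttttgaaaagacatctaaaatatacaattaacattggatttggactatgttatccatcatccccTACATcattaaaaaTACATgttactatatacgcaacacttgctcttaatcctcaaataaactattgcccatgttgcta
ETR2 (chr3:8254309-8254558, plus strand): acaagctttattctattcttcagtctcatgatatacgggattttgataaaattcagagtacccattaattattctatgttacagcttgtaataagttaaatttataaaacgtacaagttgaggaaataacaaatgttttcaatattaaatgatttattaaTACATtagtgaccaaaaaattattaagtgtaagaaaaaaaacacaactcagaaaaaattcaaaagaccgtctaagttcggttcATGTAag
ERS2 (chr1:1157814-1158063, minus strand): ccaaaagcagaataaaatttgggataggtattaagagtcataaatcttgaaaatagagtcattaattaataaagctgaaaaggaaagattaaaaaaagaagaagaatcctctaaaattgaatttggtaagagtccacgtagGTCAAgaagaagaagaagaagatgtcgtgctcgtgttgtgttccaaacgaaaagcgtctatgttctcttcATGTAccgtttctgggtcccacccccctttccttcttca
ACS6 (chr4:6863729-6863978, plus strand): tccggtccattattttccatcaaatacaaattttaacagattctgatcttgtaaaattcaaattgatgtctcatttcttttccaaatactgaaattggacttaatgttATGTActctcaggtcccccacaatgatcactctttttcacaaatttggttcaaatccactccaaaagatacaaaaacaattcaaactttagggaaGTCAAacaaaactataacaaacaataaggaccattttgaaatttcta
In EBF2 the cores TACAT begin 78 and 64 bases before the start, and in ETR2 TACAT begins 90 and ATGTA 7 bases before it. Of the 10 genes, 4 hold ATGTA in this window, against 52.0% of 27443 protein-coding genes, and 6 hold TTGAC, against 44.9%. The letters CACGTG of the G-box, bound by light-signalling factors, and GCCGCC of the GCC box, bound by ERF factors, are in none of the 10 windows and in 6.49% and 1.87% of all windows. No motif searched overlaps another one in the printed windows.

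Fewer of the 10 genes were listed between genotypes than between light and dark. In the light, 3 of the 10 were listed higher in 35S:miR396a (ACS8, ETR2 and EBF2) and 1 lower (ACS4), beside 35.5% of all genes higher and 25.9% lower. In the dark, 3 were listed higher (ACS4, ACS8 and EBF2) and 1 lower (ACS6), beside 8.74% higher and 10.6% lower. ACS8 and EBF2 were listed higher in both conditions, as were 4.05% of all genes. Past 4-fold none of the 10 was higher in either condition, beside 12.1% of all genes in the light and 2.35% in the dark. In each condition 1 of the 10 was lower past 4-fold, ACS4 in the light and ACS6 in the dark, beside 8.72% and 3.9% of all genes. Medians of log2(FPKM + 1), 35S:miR396a minus Col-0, were 0.54 over 8 ethylene genes in the light and 0.38 over 9 in the dark, beside 0.19 and −0.02 over all genes with both values. The 3 mesophyll markers (RBCS1A, LHCB1.1 and CHLH) were all listed lower in 35S:miR396a in the light, at a summed 2351 FPKM against 12603 in Col-0. In the dark LHCB1.1 was listed higher in 35S:miR396a (88.0 FPKM against 45.9 in Col-0), and RBCS1A and CHLH were not listed. The apex markers CUC1 (0.906 FPKM in dark 35S:miR396a against 0.436 in dark Col-0) and CUC2 (0.693 against 0.186) were listed higher in the dark, 2 of 3 on that list. None of the 3 root markers was listed between genotypes in the light or in the dark. The part of these markers in the ethylene genes' differences was not tested.

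**Figure D4:**
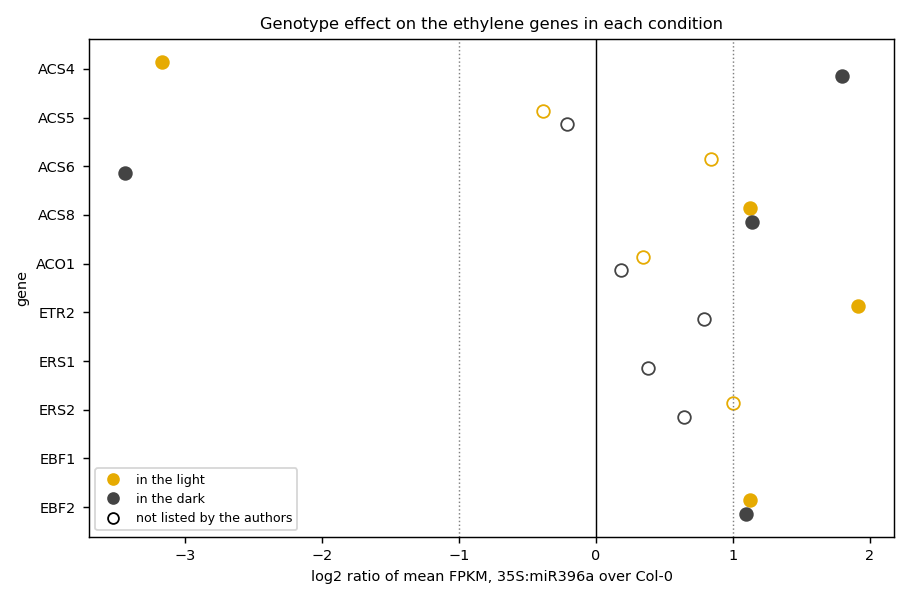
Log2 ratio of mean FPKM, 35S:miR396a over Col-0 (horizontal axis), for each ethylene gene in the light (yellow) and in the dark (grey). Filled points were listed by the authors and open points were not, with dotted lines at 2-fold. ACS8, ACO1, ETR2, ERS2 and EBF2 lie right of 0 in both conditions, ACS6 is at −3.44 in the dark and ACS4 at −3.17 in the light. ERS1 in the light and EBF1 have no point.

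ACS6 stood apart in how far the light effect (light minus dark) of the genotypes differed, taken as overexpressor minus wild type on the log2(FPKM + 1) scale. It reached 4.11, a value that 2.65% of 6223 genes with 4 values equalled or exceeded. ETR2 had 0.86 and ERS2 0.22, while EBF2, ACS5 and ACO1 lay between 0.02 and 0.07. The sign for ACS5 turned to −0.13 with a pseudocount of 0.1 and that for EBF2 to −0.0094 with a pseudocount of 5. ACS8 had −0.49 and ACS4 −0.85, and this scale understates the change of low genes such as ACS4. The median over the 8 genes with 4 values was 0.05, beside 0.12 over all 6223 genes. No test of these differences could be made from group means.

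**Figure D5:**
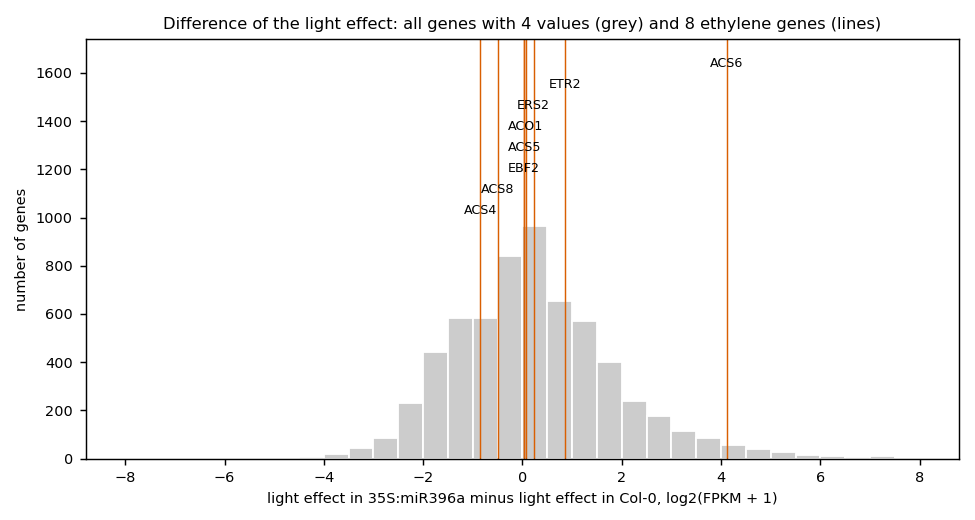
Number of genes (vertical axis) by the difference of their light effects, overexpressor minus wild type, in log2(FPKM + 1) (horizontal axis), for 6223 genes in grey, with the 8 ethylene genes as labelled lines. The values of 7 genes lie between −0.85 and 0.86, and ACS6 stands at 4.11.

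The remaining genes of the pathway were read from a list of 44. After light, 5 were listed higher and 8 lower in 35S:miR396a, and 2 higher and 15 lower in Col-0. That is 11.4% higher and 18.2% lower of the 44 in 35S:miR396a, beside 20.6% and 23.1% of all genes, and 4.55% higher and 34.1% lower in Col-0, beside 17.0% and 26.1%. In the genotype comparison, 9 were listed higher and 4 lower in the light, and 2 higher and 5 lower in the dark. These are 20.5% and 9.09% of the 44 in the light, beside 35.5% and 25.9% of all genes, and 4.55% and 11.4% in the dark, beside 8.74% and 10.6%. Only 30 of the 44 were in some table, whereas each of the 11417 genes was. The shares of the 44 are therefore lowered beside those of all genes, and the bases are unlike. The median light effect on the log2(FPKM + 1) scale was −0.06 over 19 of them in 35S:miR396a and −1.10 over 20 in Col-0, and the median genotype difference was 0.60 over 19 in the light and 0.12 over 21 in the dark, beside the medians of all genes given above. RTE1, which promotes signalling by the receptor ETR1, had 13.5 FPKM in illuminated 35S:miR396a against 6.09 in illuminated Col-0 and was listed higher. RAN1, the copper transporter that supplies the receptors, had 125 FPKM in illuminated 35S:miR396a against 51.2 in illuminated Col-0. CTR1 was listed lower after light in Col-0, at 17.7 FPKM against 40.4 in the dark.

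Genes downstream of the signal fell into separate patterns. HLS1, a gene of hook formation, was listed lower after light in both genotypes, at 3.85 FPKM in illuminated 35S:miR396a against 11.8 in dark 35S:miR396a, and at 2.37 in illuminated Col-0 against 7.73 in dark Col-0. ARGOS and ARL, which act on organ growth, were also listed lower in both. ERF1, a transcription factor of ethylene and jasmonate responses, was listed higher after light in 35S:miR396a, at 3.68 FPKM against 0.76, and lower in Col-0, at 0.08 against 1.63. The ERF1 mean in illuminated Col-0 rests on 9 pooled reads. Of the 10 touch genes, 8 followed a course like that of ERF1, with the sums given above, and their part in ERF1 and ACS7 was not tested. ACS11 took another course, listed lower after light in both genotypes, and the part of the touch genes in it was not tested either. HEL, a hevein-like defence protein, was listed higher after light in 35S:miR396a, at 275 FPKM against 123 in the dark. In Col-0 it had 56.5 FPKM in the light and 85.5 in the dark and was not listed. EDF3, a DNA-binding factor of the ethylene response, had 18.5 FPKM in illuminated 35S:miR396a and 18.1 in dark 35S:miR396a, against 4.87 in illuminated Col-0 and 10.99 in dark Col-0; it was listed higher in the overexpressor in the light.

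Likeness of pattern was measured as the Euclidean distance between log2(FPKM + 1) profiles over the 4 group means, each centred on its own mean, among 3812 genes reaching 5 FPKM. FRO3 was nearest to ACO1 at a distance of 0.04, CBF4 to ACS6 at 0.21 and IQD22 to ETR2 at 0.24. The nearest to ACS4 was AT4G10000 at 0.29, to ACS5 AT3G12710 at 0.18, to ACS8 AT3G43850 at 0.11, to ERS2 AT2G41760 at 0.10 and to EBF2 AT3G46280 at 0.15. With 4 points, near profiles are common for some genes: 181 lay within 0.5 of ACO1, against 11 of ACS6 and 12 of ETR2.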

How the data were processed

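Per the labels' protocols, messenger RNA libraries of 12 samples were sequenced on the BGISEQ-500 platform. HISAT, Bowtie2 and the TAIR10 build are named, without versions, by the submitters' processing notes. Per the file headers, the 6 deposited tables, one per pair of groups, hold the authors' mean FPKM per group beside a log2 fold and DEGseq's p-value and q-value; the design text names Noiseq instead. Genes appear in a deposited table only past a log2 fold of 1 in size and below a q-value of 0.001. The authors' FPKM values of a group were the same in every table. Columns of other series numbered 0.

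Because the tables hold group means, no model was fitted and the authors' calls were counted. Pooled reads were solved from the deposited log2 fold and p-value under DEGseq's sampling model. For genes under 60 reads, 82.7% to 86.4% came out whole within 0.05. Genes were matched to TAIR10.1 for names, positions and sequence, with 10 of 10 ethylene genes and 44 of 44 pathway genes found. Values of some pathway genes are not reported here. The members and lists were chosen with earlier results of these data known. Named genes were the 10 members, pathway genes listed in a main comparison, and for each member with 4 values the gene with the nearest profile. Outside that rule, the text names miR396 targets, touch genes and tissue markers from their lists, receptor genes found in no table, and EIN2, EIN3 and EDF1, which were chosen after their values were seen. Alternatives were a 4-fold limit, FPKM ratios, at least 5 FPKM, a q-value under 1e-10, other pseudocounts and, added after the data were seen, the other dark group. Scripts were tested on simulated data (Python 3.11.15, pandas 2.3.3, SciPy 1.17.1, edlib 1.3.9.post1 for edit distances).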

Additional observations from a re-analysis of the deposited data

How the results depend on the processing

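Of 75 summaries recomputed under other settings, 54 kept their value within the limit (1.5 times for a count). That total includes checks that could hardly fail. A limit on the FPKM ratio left all 16 counts the same, but it nearly repeats the authors' own 2-fold limit. A count of 0 also cannot rise under a stricter limit. With the 4-fold limit 11 counts moved and 5 kept their value. At 4-fold, ethylene genes listed lower after light numbered 2 in 35S:miR396a and 4 in Col-0, and 0 were higher in 35S:miR396a than in Col-0 in the light or in the dark. At 4-fold the other pathway genes numbered 1 higher and 2 lower after light in 35S:miR396a and 0 higher and 6 lower in Col-0, and between genotypes 2 higher and 0 lower in the light and 3 lower in the dark. With at least 5 FPKM in the higher group, which removes ACS4 and ACS8, 0 ethylene genes were higher after light in Col-0, 0 were lower in 35S:miR396a in the light and 1 was higher there in the dark. Under that limit the pathway genes numbered 3 higher after light in 35S:miR396a, 1 higher after light in Col-0, and 0 higher and 1 lower between genotypes in the dark. At a q-value under 1e-10, 1 pathway gene was higher after light in Col-0 and 3 were lower between genotypes in the dark. With dark Col-0 in place of dark 35S:miR396a, 4 ethylene genes were lower after light in 35S:miR396a. These counts fall because fewer genes meet the stricter limit, except for the exchange of the dark group, whose cause was not tested. Of 40 values of single genes, 2 changed sign: the difference of the light effect was −0.13 for ACS5 with a pseudocount of 0.1 and −0.0094 for EBF2 with a pseudocount of 5. The median over members was 0.09, 0.01 and 0.15 with pseudocounts of 0.1 and 5 and with the 5 FPKM limit. Replicates could not be left out in turn, since the files hold group means. No paired analysis was possible because the columns carry no replicate numbers.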

Other observations

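Several central genes of ethylene signalling were listed in 1 table only, that of dark 35S:miR396a against illuminated Col-0, which differ in both genotype and light. EIN2, the membrane protein that relays the signal, had 76.8 FPKM in dark 35S:miR396a against 33.7 in illuminated Col-0. EIN3, the transcription factor at the end of the pathway, had 115 FPKM against 56.8 in the same groups, and EDF1, a DNA-binding factor of the ethylene response, had 86.4 against 39.6. Of the 44 pathway genes, 30 of which were in some table, 17 were listed there as higher in dark 35S:miR396a and 2 lower. Among the 10 ethylene genes 8 were listed higher and 1 lower, beside 29.5% of all genes higher and 17.9% lower. Genotype and light cannot be told apart in this pair.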
